A study of Mus musculus with 3 samples.

Results

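Early committed oligodendrocyte precursor nuclei were picked out of differentiated neurosphere cultures by their raw transcript counts, and they made up 751 of the 12549 nuclei of the series. A nucleus was a member when it held at least 8 unique molecular identifiers (UMIs, 1 for each captured RNA molecule) of Bcas1, Gpr17 and Bmp4 together and at most 1 of Enpp6. It also had to hold under 4 UMIs of Mog, Mag, Mobp and Ermn together, and under 3 of the dividing-cell genes Top2a, Mki67, Kif11 and Knl1. The levels of these 12 genes in the members are therefore a description of the choice and not a result.

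The cultures were neurospheres grown from the subventricular zone of newborn C57BL/6 mice and let to differentiate, with nuclei taken on day 15 in vitro. One library of nuclei was made for each of 3 conditions: control, CBP-ablated (CBPf/f with Cre) and p300-ablated (p300f/f with Cre). CBP (gene Crebbp) and p300 (gene Ep300) are paralogous lysine acetyltransferases, and the study asked what neural stem cells can become without one of them. Each library was a pool of about 15 cultures with 16000 nuclei loaded. The methods describe a lentivirus with Cre fused to mCherry for ablation and one with RFP alone for control, and nuclei sorted by that red fluorescence. The labels name tamoxifen as treatment in all 3 libraries, and the line of mice behind the control cultures was not given in the sources used here. With 1 library per condition no difference could be tested against a spread between cultures. Every interval below is a 95% interval that covers counting error only, and every difference compares libraries and not conditions.

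Oligodendrocytes, the myelin-forming cells of the brain, arise from dividing precursors that carry the growth factor receptor PDGFRA and the proteoglycan NG2 (Cspg4). A precursor that commits to differentiate leaves the cell cycle, loses these surface proteins and passes through a short premyelinating stage marked by the receptor GPR17 and the protein BCAS1, before the enzyme ENPP6 and then the myelin proteins appear. Many of these cells die or stall at this stage, which makes it a control point of myelination.

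The control library held 216 members among 4884 nuclei, the CBP-ablated library 296 among 3017 and the p300-ablated library 239 among 4648. Their summed depth was 894761, 1276711 and 1119240 UMIs, of 16312170, 12748336 and 18876682 UMIs in the whole libraries. A median member held 4004.5, 4098 and 4584 UMIs and 1665.5, 1796.5 and 1854 detected genes in the same order, so the members were slightly deeper in the p300-ablated library. A doublet caller marked 13, 13 and 14 members, or 6.019%, 4.392% and 5.858%, against 3.911%, 2.42% and 3.722% of all nuclei. Libraries shared at most 7 cell barcodes in a pair, and no member barcode was shared.

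Members were 4.423% of the control nuclei (3.863 to 5.037), 9.811% of the CBP-ablated nuclei (8.772 to 10.93) and 5.142% of the p300-ablated nuclei (4.525 to 5.816). The CBP-ablated library was above control by 5.388 percentage points (4.206 to 6.626), while the interval of the p300-ablated difference, 0.7194 points (-0.1377 to 1.583), included 0. With a limit of 5 core UMIs that difference was 1.46 points (0.406 to 2.52), above 0. Nuclei were also thinned to 1500 UMIs with lower limits to match, which left out those under 1500 UMIs and kept 4636, 2922 and 4513 nuclei. Members were then 4.745%, 10.34% and 4.897% of the nuclei kept, so the excess in the CBP-ablated library was as large at equal depth.

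Set against the oligodendrocyte lineage alone, the picture was another. The lineage was taken as 4 groups that do not overlap: precursor nuclei (at least 4 UMIs of Pdgfra and Cspg4 but below the member limit, with the other limits of the rule), members, Enpp6 nuclei (at least 2 Enpp6 UMIs) and mature nuclei (at least 4 UMIs of the 4 myelin genes). Members were 20.99% of the control lineage (18.54 to 23.61), 22.06% of the CBP-ablated lineage (19.86 to 24.37) and 14.6% of the p300-ablated lineage (12.92 to 16.4). The CBP-ablated library differed from control by 1.065 points (-2.295 to 4.371) and the p300-ablated library by -6.391 points (-9.454 to -3.413). Around the members, precursor nuclei were 44.9%, 18.18% and 67.07% of the lineage, Enpp6 nuclei 17.59%, 22.06% and 6.17%, and mature nuclei 16.52%, 37.7% and 12.16%. The higher share of CBP-ablated nuclei thus went with a larger lineage, of which precursor nuclei were a smaller part and mature nuclei a larger part. Of all nuclei, precursor nuclei were 8.088% in the CBP-ablated library and 9.459% in control (-1.372 points, -2.627 to -0.07674). Mature nuclei were 16.77% and 3.481% of all nuclei. In the p300-ablated library the members were a smaller part of a lineage made up mostly of precursor nuclei.

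**Figure D1:**
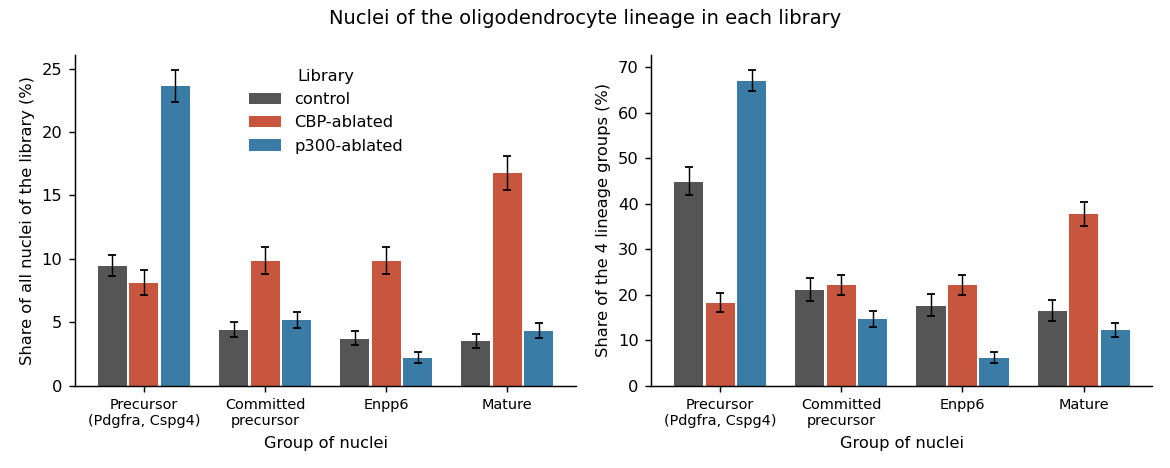
Bars give the share (%) of each of 4 groups of nuclei among all nuclei of a library (left) and among the 4 groups together (right), in the control, CBP-ablated and p300-ablated libraries, with exact 95% binomial intervals. Committed precursor nuclei were 4.423%, 9.811% and 5.142% of all nuclei but 20.99%, 22.06% and 14.6% of the lineage.

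The choice rested mostly on 1 of the 3 core genes. Bcas1 (ENSMUSG00000013523, GRCm38 chromosome 2 from 170346991 to 170427845, minus strand), which marks premyelinating and early myelinating oligodendrocytes, had 3953, 4357 and 4157 CPM (UMIs of the gene scaled to a total of 1000000) in the control, CBP-ablated and p300-ablated members. Gpr17, a receptor that holds precursors back from maturing, had 118.5, 112.8 and 87.6 CPM. Bmp4 (ENSMUSG00000021835, chromosome 14 from 46383520 to 46390669, minus strand), a secreted ligand of the BMP pathway, had 89.4, 117.5 and 78.6 CPM. The sum of the 3 genes ran from 8 over a median of 14 to 47 UMIs per control member, from 8 over 17 to 89 per CBP-ablated member and from 8 over 15 to 73 per p300-ablated member.

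A Gpr17 or Bmp4 UMI was found in 49.07% of control members (106 nuclei), 54.05% of CBP-ablated members (160) and 43.1% of p300-ablated members (103). After thinning to 1500 UMIs, which left out 5 CBP-ablated members, the shares were 27.78%, 28.18% and 23.43%. Microglial nuclei, which should lack both genes, gave 2.174%, 0% and 2.941% at median depths of 1626.5, 1639.5 and 2753 UMIs, and the 0 of 32 nuclei allows a share of up to 10.89%. The members without such a UMI, 110, 136 and 136 nuclei, entered on Bcas1 alone.

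The label was then checked with its markers outside the rule. Arhgap24 (ENSMUSG00000057315, chromosome 5 from 102481391 to 102897937, plus strand), which encodes a GTPase-activating protein of the Rac pathway, had 1283 CPM in control members (1210 to 1359), 1463 in CBP-ablated members (1398 to 1531) and 1132 in p300-ablated members (1071 to 1196). Precursor nuclei had 130.4, 77.0 and 124.5 CPM, and Enpp6 nuclei 1143, 755 and 1350. Microglial nuclei held 504, 451 and 425 CPM of Arhgap24, so this gene was not confined to the lineage.

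Fam163a (ENSMUSG00000015484, chromosome 1 from 156075966 to 156205026, minus strand) had 78.2, 72.1 and 94.7 CPM in members. Precursor nuclei held none of its UMIs in the control library, where 3 UMIs would be 1.803 CPM, and 2.232 and 3.399 CPM in the ablated libraries. Col9a1 (ENSMUSG00000026147, chromosome 1 from 24177610 to 24252684, plus strand), which encodes a collagen IX chain, had 105.1, 105.0 and 24.1 CPM in members against 4.206, 10.05 and 1.487 in precursor nuclei. Enpp6 nuclei had 78.0, 85.4 and 150.4 CPM of Fam163a and 107.9, 80.8 and 58.3 CPM of Col9a1. All 3 markers were thus higher in members than in precursor nuclei in all 3 libraries, but none was higher in members than in Enpp6 nuclei in all 3. Between libraries the log2 ratio of Arhgap24 to control was 0.19 (0.08 to 0.30) for CBP-ablated members and -0.18 (-0.30 to -0.06) for p300-ablated members, and Col9a1 was the marker past 1 log2 unit. The p300-ablated members held 27 of its UMIs and the control members 94, which gave a log2 ratio of CPM of -2.12 (-2.80 to -1.49).

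**Figure D2:**
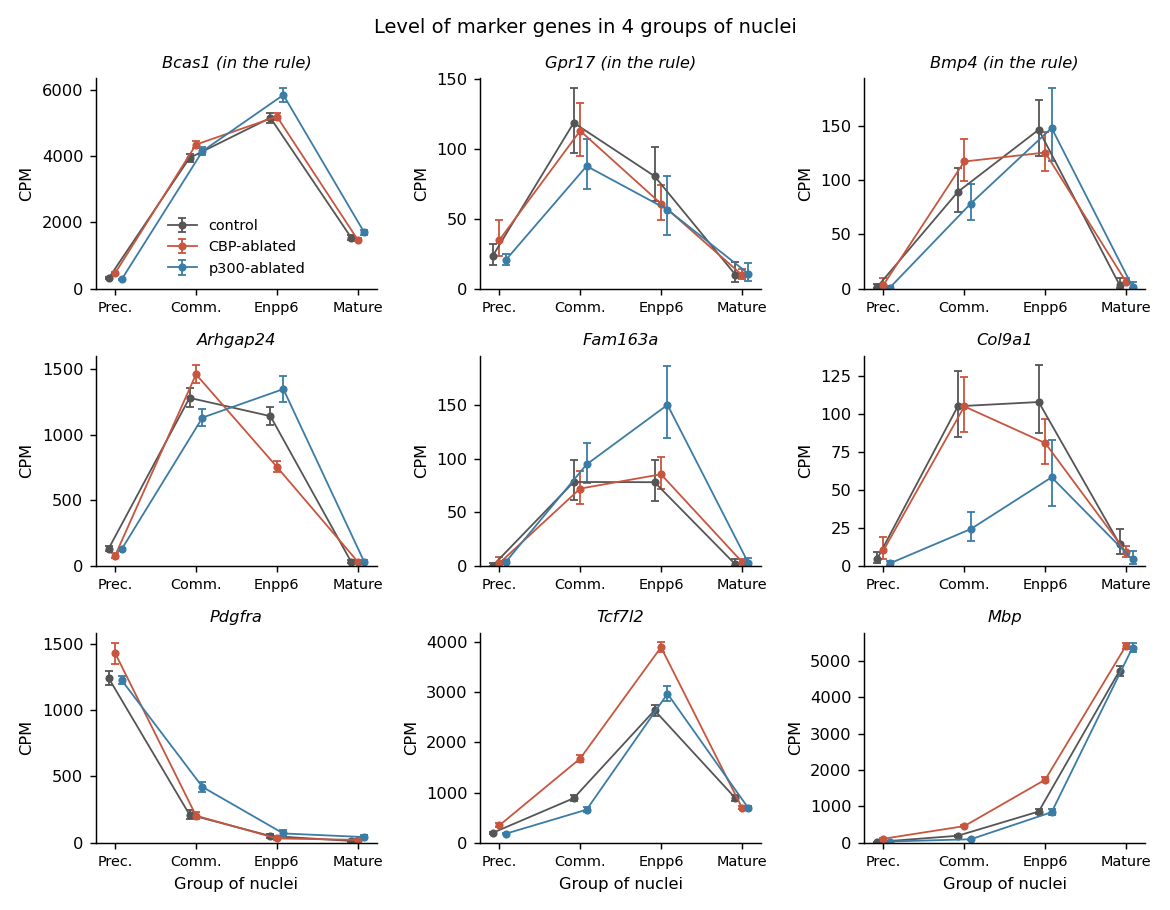
Level (CPM, vertical axis) of the 6 label markers and of Pdgfra, Tcf7l2 and Mbp in precursor, committed, Enpp6 and mature nuclei (horizontal axis) of each library, with exact 95% Poisson intervals. Col9a1 reached 24.1 CPM in committed nuclei of the p300-ablated library against 105.1 in control, and Tcf7l2 reached 1679 in the CBP-ablated library against 887 in control.

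The members were not a uniform set. Those with a Gpr17 or Bmp4 UMI held 1661, 2010 and 1698 CPM of Arhgap24, against 930, 818 and 711 in those chosen by Bcas1 alone. The precursor receptor gene Pdgfra went the other way, with 141, 79.6 and 255.5 CPM in the former and 277, 350 and 542 in the latter. On these genes, which the rule did not use, nuclei chosen by Bcas1 alone lay nearer to precursor nuclei in all 3 libraries. Later genes were mixed. Fyn had 2089, 1832 and 1418 CPM in members chosen by Bcas1 alone and 2646, 2243 and 2570 in the others. Itpr2 had 893, 1023 and 782 CPM against 1249, 1351 and 1171. Tcf7l2 had 995, 1949 and 522 CPM against 772, 1451 and 844, so its order turned in the p300-ablated library. Mbp had 240.1, 751.4 and 101.3 CPM against 138.8, 206.9 and 85.9. Col9a1 had 127.6, 66.6 and 12.5 against 81.0, 137.5 and 39.8 CPM.

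No step in Arhgap24 common to the 3 libraries marked the limit of 8 UMIs. Just inside it, at 8 or 9 core UMIs, Arhgap24 had 767, 497 and 515 CPM in 45, 41 and 49 nuclei. Just outside, at 6 or 7, it had 717, 1066 and 360 CPM in 66, 61 and 73 nuclei. Members with 20 or more core UMIs, which numbered 67, 121 and 84, had 1627, 1732 and 1728 CPM. On the Enpp6 side, nuclei left out for holding exactly 2 Enpp6 UMIs had 1687, 517 and 2139 CPM in 36, 49 and 15 nuclei.

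The libraries also differed in how many members still met the precursor limit of 4 Pdgfra and Cspg4 UMIs. These were 27 control members (12.5%, 8.402 to 17.66), 31 CBP-ablated members (10.47%, 7.228 to 14.54) and 75 p300-ablated members (31.38%, 25.55 to 37.68). With members thinned to 1500 UMIs (216, 291 and 239 nuclei) and a limit of 2 the shares were 10.19%, 7.56% and 26.36%, so the higher share in the p300-ablated library did not go away at equal depth. That library also held 1098 precursor nuclei against 462 in control, and the part of precursor nuclei with chance Bcas1 counts in its members was not tested. The p300 ratios of the highest and lowest genes are therefore given below without those nuclei too.

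**Figure D3:**
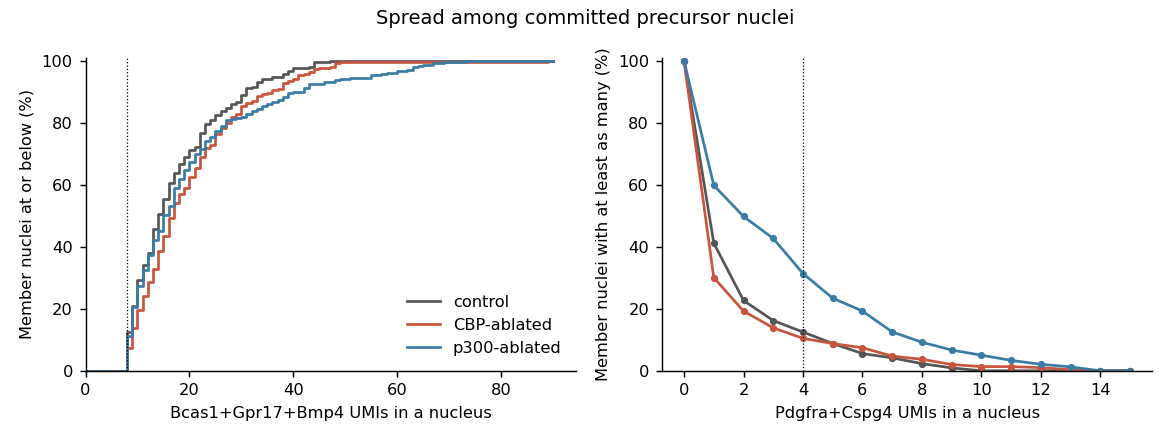
Left, cumulative share (%) of member nuclei by their Bcas1, Gpr17 and Bmp4 UMIs, with the limit of 8 dotted. Right, share (%) of members with at least the given number of Pdgfra and Cspg4 UMIs, with the precursor limit of 4 dotted, where the p300-ablated library stood at 31.38% against 12.5% in control.

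Along the order of precursor, committed and Enpp6 nuclei, 22 of the 8849 genes compared were higher at each step by at least 1 log2 unit in all 3 libraries, and 4 were lower. The 4 lower genes were Pdgfra, the proteoglycan gene Cspg5, the growth factor gene Nrg3 and Nkain3. Among the 22 higher were the transcription factor genes Tcf7l2 and St18, the myelin gene Mbp, the microtubule-associated protein gene Map1b, the cell-adhesion scaffold gene Frmd4a, the semaphorin gene Sema4d and the fatty acid elongase gene Elovl7. Frmd4a, for example, had 122.6, 1583 and 9586 CPM in precursor, committed and Enpp6 nuclei of the control library, and Tcf7l2 had 197.7, 887.4 and 2641. For these genes the members stood between their neighbours. The groups were cut by markers of the same course, so this order is a description of the choice.

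Genes that peaked in the members were few. Of the 8849 genes, 493 were higher in members than in both neighbours in all 3 libraries, but only 3 by at least 0.5 log2 units: the potassium channel gene Kcnj3, the GABA-A receptor subunit gene Gabrg3 and the lysosomal sulfatase gene Arsb. Kcnj3 had 203.4, 154.3 and 159.0 CPM in members, against 77.5, 49.1 and 68.4 in precursor and 89.5, 56.1 and 86.5 in Enpp6 nuclei. Arsb had 535, 322 and 555 CPM in members against 252, 138 and 239 in precursor and 297, 211 and 304.5 in Enpp6 nuclei. Gabrg3 had 204.5, 54.1 and 183.2 CPM in members, so its level was lowest in the CBP-ablated library here, as it was in precursor and Enpp6 nuclei.

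Against precursor nuclei, 116 of 8160 genes (1.42%) were higher in members by at least 1 log2 unit in every library. The steepest by the smallest of the 3 ratios were the long noncoding RNA gene 9530059O14Rik (at least 3.81 log2 units), Arhgap24 (3.09), Etl4 (3.05), the membrane skeleton gene Epb41l2 (2.97), Map1b (2.91) and Frmd4a (2.81). After them came Fam163a (2.75), Bcas1os2 (2.66), an antisense transcript within the Bcas1 gene that may share reads with it, Lingo2 (2.37) and the tubulin deacetylase gene Sirt2 (2.28). Conversely, 51 genes (0.625%) were higher in precursor nuclei, led by the glypican gene Gpc5 (2.07), the homeobox gene Dbx2 (1.76), the glutamate receptor gene Grm5 (1.60) and the glutamate transporter gene Slc1a2 (1.60).

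Against Enpp6 nuclei, 67 of 6468 genes (1.04%) were higher in members, led by the sorting receptor gene Sorcs3 (1.97), Pdgfra (1.87), Megf11 (1.79), Marchf1 (1.72), the kainate receptor auxiliary gene Neto1 (1.72) and the ETS factor gene Etv1 (1.70). Higher in Enpp6 nuclei were 77 genes (1.19%), led by the glutamate receptor gene Grm7 (2.20), Frmd4a (2.14), Ddc (2.06), Trpc4, a cation channel gene just under it, and Mbp (1.90). Members thus still held several precursor transcripts that Enpp6 nuclei had at lower levels, and the reverse for Grm7 and Frmd4a.

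The targeted genes were looked at first in the comparison between libraries. Crebbp had 305.1 CPM in control members (270 to 343.5), 399.5 in CBP-ablated members (365.5 to 435.7) and 326.1 in p300-ablated members (293.5 to 361.3). Ep300 had 115.1, 155.1 and 109.0 CPM in the same order. The log2 ratio to control was 0.39 (0.17 to 0.61) for Crebbp in the CBP-ablated members and -0.08 (-0.47 to 0.31) for Ep300 in the p300-ablated members. The floxed alleles lose a single exon each, and these counts from exons and introns do not show that exon. For the Ep300 allele the paper states that mature mRNA and protein are absent after recombination. Mature mRNA is not counted apart from unspliced RNA here, so these counts neither test nor check the ablation.

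CBP-ablated and control members were compared over the 3517 genes with at least 100 UMIs in the pair of libraries. Of these, 33 (0.938%) were at least 1 log2 unit higher in the CBP-ablated members and 67 (1.91%) at least 1 lower. The median gene stood at 0.14, and with the ratios centred on it the split was 20 higher and 94 lower in place of 33 and 67. Lower genes outnumbered higher ones under either scaling.

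Slit2 (chromosome 5 from 47983138 to 48307733), a secreted repellent of axons and migrating cells, had 15 UMIs in control members and 156 in CBP-ablated members, or 16.8 against 122.2 CPM (log2 ratio 2.87, 2.10 to 3.74). Next were Syt1, a calcium sensor of vesicle release, at 2.08 (35.8 against 151.2 CPM) and Shroom3, an actin-binding protein of apical constriction, at 1.82 (44.7 against 158.2 CPM). Grm7 was at 1.59 (264.9 against 796.6 CPM). The rest of the 10 highest were Klhl29 at 1.53, the mechanosensitive channel gene Piezo2 at 1.50, the transcription factor gene Bcl11a at 1.50, the gap junction gene Gjc3 at 1.40, the Notch coactivator gene Maml3 at 1.37 and Dach2 at 1.36.

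Some of these ratios were seen in precursor nuclei of the same libraries too. There Slit2 stood at 2.25, Syt1 at 2.32, Shroom3 at 1.87 and Grm7 at 1.60, whereas Klhl29 was at -0.64, Piezo2 at -0.11 and Maml3 at 0.03. In Enpp6 nuclei Slit2 stood at 1.68, Dach2 at 1.41, Syt1 at 1.38, Grm7 at 1.02 and Klhl29 at 1.27, but Maml3 at -1.01. Bcl11a at 0.86, Gjc3 at 0.47, Shroom3 at 0.45 and Piezo2 at 0.41 stood under 1 there. Whether the ratio differed between the groups of nuclei was not tested. Shroom3 also had 86.0, 354.6 and 60.8 CPM in microglial nuclei of the control, CBP-ablated and p300-ablated libraries, above its level in members of the CBP-ablated library, so no expression of Shroom3 in members can be read from it there. As the list of radial glia markers (3 genes), in which Shroom3 was the most abundant and none was at 0, it summed to 91.6, 226.4 and 159.0 CPM in members.

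The lowest ratio was that of Tmem132d (chromosome 5 from 127781630 to 128433077), which encodes a transmembrane protein, with 210 UMIs in control members and 19 in CBP-ablated members, or 234.7 against 14.9 CPM (log2 ratio -3.98, -4.74 to -3.30). The proton-gated channel gene Asic2 stood at -2.82 (243.6 against 34.5 CPM), the prohormone convertase gene Pcsk2 at -2.36, Gpc5 at -2.34 and the potassium channel partner genes Kcnip3 and Kcnip1 at -2.24 and -1.95. The synaptic scaffold gene Dlg2 stood at -2.09, the formin gene Fmn1 at -2.07, Gabrg3 at -1.92 and the splicing factor gene Rbfox1 at -1.91. All 10 had a negative ratio in precursor nuclei as well, from -1.89 for Gpc5 to -0.73 for Kcnip1. They were negative in Enpp6 nuclei too, where the interval of Asic2 (-0.36, -0.91 to 0.21) included 0. In mature nuclei Gabrg3 stood at 1.86 (0.56 to 3.53). Kcnip1 (0.62), Asic2 (0.22), Dlg2 (-0.03), Pcsk2 (-0.13) and Kcnip3 (-0.57) had intervals that included 0 there. Those of Tmem132d (-3.08), Rbfox1 (-0.96), Fmn1 (-0.91) and Gpc5 (-0.59) lay below 0. Shares over all genes in these groups are not given.

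By lists, the genes of precursor identity (13 of 17 compared) had a median of -0.26 beside 0.14 for all genes, with none past 1 log2 unit and 12 of 13 negative, beside 34.3% negative over all genes compared. Cacng4, an AMPA receptor auxiliary subunit, stood at -0.77, Cspg4 at -0.76 and Pcdh15 at -0.75, but Pdgfra at -0.05 (-0.33 to 0.23). The Pdgfra ratio was not the same in subsets of members. Those with a Gpr17 or Bmp4 UMI had 141.1 CPM of it in control and 79.6 in CBP-ablated nuclei. Those with 20 or more core UMIs had 67.2 and 38.8 CPM, but those chosen by Bcas1 alone 276.8 and 350.1. The 8 compared genes of myelin (of 20) were all positive and all above the median gene, with a median of 0.45, and Gjc3 at 1.40 and Mbp at 1.26 (191.1 against 456.6 CPM) were past 1. The Mbp call did not hold in every subset of members. Those chosen by Bcas1 alone had 240.1 CPM in control and 751.4 in CBP-ablated nuclei. Those with 20 or more core UMIs had 215.2 (165.7 to 274.7) and 447.5 (394.2 to 506.1). Those with a Gpr17 or Bmp4 UMI had 138.8 (105.9 to 178.6) and 206.9 (174.4 to 243.7), less than a 2-fold difference. Nfasc, which anchors myelin loops beside the node, stood at 0.48 and Cldn11, of myelin tight junctions, at 0.80.

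Mbp was also found where it should be low, with 206.4, 257.9 and 112.9 CPM in microglial nuclei of the control, CBP-ablated and p300-ablated libraries, so in control and p300-ablated members its level was no higher than there. Precursor nuclei had 19.8, 108.3 and 32.3 CPM of Mbp in the same order, below the members of each library. In CBP-ablated members its level, 456.6 CPM (420.3 to 495.3), was above the microglial 257.9 (147.4 to 418.8). After thinning, 25.77% of CBP-ablated members had an Mbp UMI and 31.58% of the 19 microglial nuclei kept (12.58 to 56.55), so nothing is read from that share. Mature nuclei made up 16.77% of the CBP-ablated library and 3.481% of the control, and the part of free RNA in the myelin ratios was not tested beyond a subtraction: with 10% of the whole library's profile removed the ratio of Mbp was 0.90, under the fold of 1.

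Genes of the newly forming oligodendrocyte (9 of 11 compared) had a median of 0.02 with none past 1. Tcf7l2, a Wnt pathway effector needed for differentiation (chromosome 19 from 55741820 to 55933654), had 887.4 CPM in control members and 1679 in CBP-ablated members, a log2 ratio of 0.92 (0.80 to 1.04). It stood at 0.80 in precursor and 0.56 in Enpp6 nuclei, and microglial nuclei held 705.1 and 709.2 CPM. Itpr2, a calcium release channel, stood at 0.17 and the kinase gene Fyn at -0.20.

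Transcription factors of the lineage (20 compared) had a median of 0.12 with none past 1, from St18 at -0.46 to Tcf7l2 at 0.92, with Nkx2-2 at 0.48 and Sox10 at 0.23. The BMP and TGF-beta pathway had a median of 0.17 over 12 genes, with the latent TGF-beta binding protein gene Ltbp1 at -1.45. The Wnt pathway stood at 0.19 over 11 genes with none past 1, and the Notch pathway at -0.09 over 6 with Maml3 above 1. Glutamate receptors (11 genes, median -0.04) held Grm7 above 1 and Gria1 (-1.56) and Grm5 (-1.11) below -1. GABA-A receptors (3 genes, -0.43) held Gabrg3 below -1.

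Of 18 voltage-gated and potassium channel genes Kcnq3 (-1.29) and Kcnma1 (-1.18) were past 1 log2 unit, beside 1.91% at least 1 lower over all genes. Negative ratios were held by 13 of the 18, beside 34.3% of all genes compared, and the median was -0.37. Guidance genes had a median of -0.07 over 17, with Slit2 above and the netrin gene Ntn1 (-1.02) below. Cytoskeleton genes stood at 0.03 (21 genes), matrix genes at -0.30 (7), lipid synthesis genes at -0.14 (13), cell cycle exit and p53 target genes at 0.34 (5) and lysine acetyltransferase and deacetylase genes at 0.15 (10), with none of them past 1. Of 14 immediate early genes none reached 100 UMIs, and they summed to 126.3, 75.2 and 173.3 CPM in the control, CBP-ablated and p300-ablated members.

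**Figure D4:**
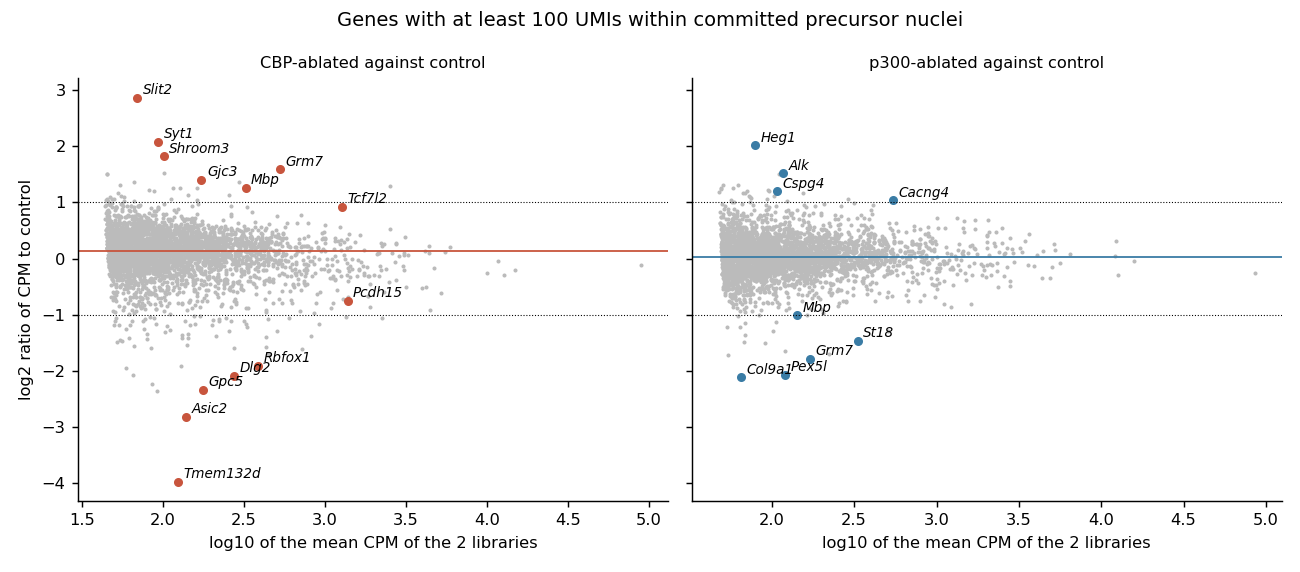
Each point is a gene with at least 100 UMIs in the pair of libraries, by the log10 of its mean CPM (horizontal) and its log2 ratio to control within committed nuclei (vertical), for the CBP-ablated (left) and p300-ablated (right) libraries. The coloured line is the median gene, 0.14 and 0.03, dotted lines mark 1 log2 unit, and Slit2 at 2.87 and Tmem132d at -3.98 stand farthest out on the left.

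p300-ablated and control members were compared over 3214 genes with the same control library, so the comparisons are not independent. Here 27 genes (0.84%) were at least 1 log2 unit higher and 20 (0.622%) at least 1 lower, with the median gene at 0.03. When each library had to hold 20 UMIs of a gene (5274 genes) the balance turned, to 41 higher and 46 lower. Fewer genes passed the fold than in the CBP-ablated members, 47 (1.46%) against 100 (2.84%). Cspg4 and Cacng4 of the precursor list were among the higher genes, and Grm7, St18 and Mbp, whose levels were higher in Enpp6 nuclei than in members, were among the lower ones. Mbp was no higher than in microglial nuclei in either library. Others went the other way: Pllp of the myelin list was among the higher genes. Gria1, among the lower genes, had 99.5 CPM in control members against 82.6 in control Enpp6 and 27.4 in control mature nuclei. Pex5l, also lower, was mixed, with 195.6 CPM in control members, 95.25 in control Enpp6 nuclei and 3818 in control mature nuclei.

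Heg1 (chromosome 16 from 33684370 to 33771576), a cell-surface mucin-like receptor, had 28 UMIs in control members and 142 in p300-ablated members, or 31.3 against 126.9 CPM (log2 ratio 2.02, 1.43 to 2.66). It stood at 1.70 in precursor nuclei but at -1.43 (-2.28 to -0.66) in Enpp6 nuclei, with 86.1 CPM in control against 32.0 CPM. The receptor tyrosine kinase gene Alk stood at 1.52 (60.4 against 173.3 CPM), the secreted protein gene Tafa1 at 1.51, the tissue factor gene F3 at 1.32, the matrix protease genes Mmp15 and Adamts9 at 1.31 and 1.21 and the actin scaffold gene Palld at 1.26. Sncaip at 1.25, the AMPA receptor partner gene Shisa6 at 1.24 and the kainate receptor gene Grik1 at 1.22 completed the 10. In members with 20 or more core UMIs Tafa1 and F3 stood at 0.83, Mmp15 at 0.45 and Adamts9 at -0.55 (6 UMIs in each library), so these 4 calls did not hold there. In precursor nuclei of the same libraries Tafa1 stood at 0.05, Sncaip at -0.14, Grik1 at -0.11, Shisa6 at 0.14 and Adamts9 at 0.17, with intervals that included 0. Alk at 0.78 (0.61 to 0.95), Palld at 0.66 (0.32 to 1.01), F3 at 0.35 (0.11 to 0.60) and Mmp15 at 0.32 (0.10 to 0.55) had intervals above 0 there. In Enpp6 nuclei Alk stood at 1.08 (0.37 to 1.80), whereas F3 at -1.35 (-2.92 to -0.03) and Adamts9 at -1.61 (-3.03 to -0.42) had the opposite sign, and the intervals of the other 6 genes included 0.

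All 10 of these genes had higher levels in precursor nuclei than in members of the control library. Grik1 had 253.6 against 57.0 CPM, Alk 200.7 against 60.4, Tafa1 181.5 against 57.0, Shisa6 144.2 against 29.1 and F3 110.0 against 29.1, whereas Heg1 had 37.3 against 31.3. The ranking favours genes that are low in control members, so this count is partly a description of the choice. It is given without the share over all genes. In the p300-ablated library Heg1 had 120.9 CPM in precursor nuclei against 126.9 in members, and the others were higher in precursor nuclei. Without the members at the precursor limit Heg1 stood at 2.35, Alk at 1.72, Palld at 1.49, Mmp15 at 1.46, Tafa1 at 1.40, F3 at 1.34 and Adamts9 at 1.09. Shisa6 stood at 1.03, Sncaip at 1.00 and Grik1 at 0.97, the last under the fold of 1. The part of precursor nuclei in these ratios was not tested further.

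Col9a1 had the lowest ratio, as given above. In members with fewer than 4 Pdgfra and Cspg4 UMIs it stood at -1.71, and in those with 20 or more core UMIs, where 19 UMIs faced 35 in control, at -1.43. It was thus lower in both subsets, by a smaller factor. In Enpp6 nuclei of these libraries it stood at -0.89 (-1.52 to -0.29).

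The other low genes were Pex5l, a channel trafficking protein gene, at -2.07 (195.6 against 46.5 CPM), Grm7 at -1.79 (264.9 against 76.8 CPM), Ppfibp2 at -1.73 and 9630013A20Rik at -1.70. The ephrin receptor gene Ephb1 stood at -1.65, the sodium-calcium exchanger gene Slc24a2 at -1.50, Frmd4b at -1.49, St18 at -1.47 (488.4 against 176.0 CPM) and the AMPA receptor gene Gria1 at -1.37. In control mature nuclei Gria1 had 27.4 CPM, under its 99.5 in control members. The others of these 9 had more there than in control members, from 597.8 CPM for Ppfibp2 to 5562 for Slc24a2. The part of stage in these ratios was not tested. In Enpp6 nuclei Grm7 stood at -0.04 (-0.16 to 0.07), Ephb1 at 0.13 (-0.08 to 0.33) and St18 at 0.11 (-0.03 to 0.24), so the intervals of these 3 genes included 0 there, as did those of Ppfibp2 (-0.29) and Frmd4b (-0.29). Gria1 at -2.29 (-3.47 to -1.28), Pex5l at -0.96 (-1.66 to -0.31) and 9630013A20Rik at -0.88 (-1.08 to -0.68) were lower in Enpp6 nuclei too, and Slc24a2 at 0.42 (0.18 to 0.65) was higher. With 20 or more core UMIs Grm7 stood at -0.89 and St18 at -1.32. Gria1 and Frmd4b also fell under the fold of 1 there, as given in the last section. Without the members at the precursor limit the 9 ratios lay between -2.42 for Pex5l and -1.02 for Frmd4b, with Grm7 at -1.94 and St18 at -1.15.

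The 13 compared genes of precursor identity were all positive, beside 54.9% of all genes compared, with a median of 0.42 beside 0.03. Cspg4 had 64.8 CPM in control and 149.2 in p300-ablated members (1.20, 0.76 to 1.66) and Cacng4 357.6 and 733.5 CPM (1.04), and these 2 passed the fold. Pdgfra stood at 0.99 (211.2 against 419.9 CPM), Xylt1, which starts glycosaminoglycan chains, at 0.69, Megf11 at 0.63 and Ptprz1, a receptor phosphatase, at 0.47. In precursor nuclei themselves Pdgfra stood at -0.02 and Cspg4 at 0.08. With the members at the precursor limit left out Pdgfra stood at 0.49, Cspg4 at 0.97 and Cacng4 at 0.95, so neither call of the list held there, but Pdgfra and Cspg4 set that limit. In members with 20 or more core UMIs the Cacng4 ratio was larger, as given in the last section. Cspg4 had 36.98 CPM in control and 73.35 in p300-ablated members there, just under the fold.

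Over all genes compared 45.1% were negative. Of 8 newly forming genes compared 7 were negative, with a median of -0.37 and none past 1: Sirt2 stood at -0.59, Tcf7l2 at -0.43, Fyn at -0.30 and Itpr2 at -0.17. Of 8 myelin genes 6 were negative, with a median of -0.39. Mbp stood at -1.01 (191.1 against 94.7 CPM, each below the microglial level of its own library) and the galactolipid enzyme gene Ugt8a at -0.53, while the plasmolipin gene Pllp was at 1.01. In Enpp6 nuclei Mbp stood at -0.03 (-0.20 to 0.14) and Ugt8a at -0.02 (-0.25 to 0.20).

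Beside 54.9% positive over all genes compared, 16 of 20 voltage-gated and potassium channel genes were positive. None was past 1 and the median was 0.41. The calcium channel genes Cacna2d3 (0.87) and Cacna1d (0.78) and the sodium channel genes Scn1a (0.77) and Scn2a (0.76) led, and Kcnip4 (-0.69) was lowest. The Notch pathway had a median of 0.51 over 7 genes with none past 1, with Maml3 at 0.80 and Notch1 at 0.63. GABA-A receptors stood at 0.32 (3 genes, none past 1). Glutamate receptors (12 genes, median 0.09) held Grik1 above 1 and Grm7 and Gria1 below -1.

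Lineage transcription factors had a median of 0.04 over 18 genes with St18 below -1, and the BMP and TGF-beta pathway 0.11 over 12 and the Wnt pathway 0.07 over 10 with none past 1. Guidance genes stood at -0.00 (17 genes, Ephb1 below -1), cytoskeleton genes at -0.14 (21, none past 1), matrix genes at -0.11 (7, Col9a1 below -1) and lipid synthesis genes at -0.21 (12, with the sterol enzyme gene Msmo1 at -1.01). Cell cycle exit and p53 target genes stood at 0.33 (4 genes) and acetyltransferase and deacetylase genes at 0.13 (10), with none past 1. Positive ratios were held by 54.9% of all genes compared. Beside that share stood 9 of 18 transcription factors, 7 of 12 BMP genes, 8 of 17 guidance genes, 7 of 21 cytoskeleton and 3 of 12 lipid synthesis genes.

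**Figure D5:**
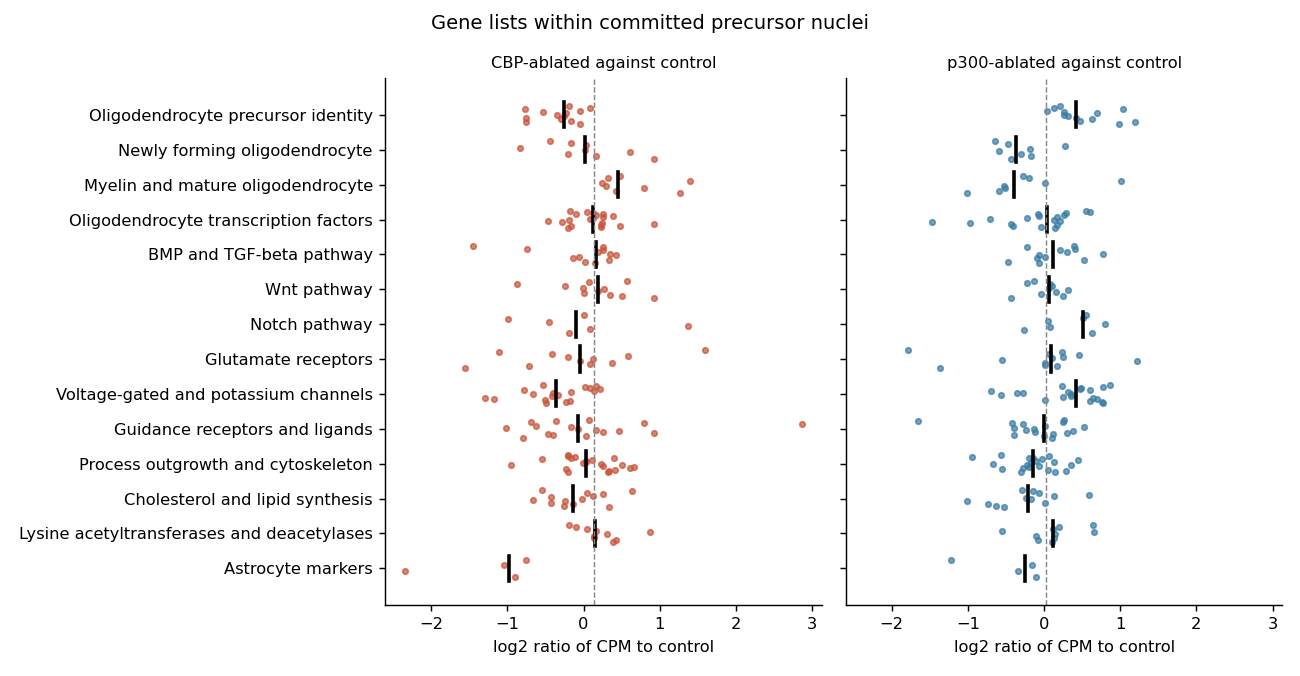
Each point is a gene of a list, by its log2 ratio of CPM to control within committed nuclei, for the CBP-ablated (left) and p300-ablated (right) libraries. Black bars mark list medians and the dashed line the median of all genes compared; precursor identity genes had medians of -0.26 and 0.42 and myelin genes 0.45 and -0.39.

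Few genes passed the fold in both comparisons, which share their control. Of 3114 genes compared in both, 2 were higher in both (Heg1 and Palld) and 3 lower in both (Etl4, Ppfibp2 and Gria1). Etl4 (chromosome 2 from 19909780 to 20810713) had 720.9 CPM in control members and the same 292.2 CPM in members of both ablated libraries. Grm7, Mbp and the ubiquitin ligase gene Rnf220 were higher in CBP-ablated and lower in p300-ablated members: Rnf220 had 74.9, 178.6 and 32.2 CPM in the control, CBP-ablated and p300-ablated libraries. The growth factor gene Nrg3 was the 1 gene with the opposite signs, at 188.9, 72.8 and 394.9 CPM.

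Markers of other cell types were found in members at levels that differed between libraries. The 8 astrocyte markers, none of them at 0 and with Gpc5 the most abundant in the control and p300-ablated members and Slc1a3 in the CBP-ablated ones, summed to 716.4, 294.5 and 574.5 CPM in the control, CBP-ablated and p300-ablated members. In precursor nuclei they summed to 2063, 824.9 and 1888 CPM and in microglial nuclei to 1336, 1032 and 581.8, where Apoe, which microglia express themselves, gave 693.7 and 499.7 CPM of the control and CBP-ablated sums. All 4 compared in the CBP-ablated members were negative (median -0.97), with Gpc5 at -2.34 and Rorb at -1.05, and in the p300-ablated members Apoe stood at -1.22 (median of 4, -0.25). The part of free astrocyte RNA in these values was not tested.

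The 7 neuron markers summed to 792.4, 527.1 and 752.3 CPM, of which Adarb2 alone gave 733.2, 491.1 and 659.4, with none at 0. The 6 microglia markers summed to 21.2, 24.3 and 50.0 CPM against 7791, 7527 and 6183 in microglial nuclei, with Fyb the most abundant and 1 of them at 0 in control members. The 5 vascular markers summed to 10.1, 7.05 and 4.47 CPM, with Pecam1 the most abundant and 3, 2 and 3 of them at 0. The 4 ciliated cell markers summed to 13.4, 11.8 and 7.15 CPM, with Cfap43 (Dnah11 in the p300-ablated members) the most abundant and 1, 0 and 1 at 0. The 3 Schwann cell markers summed to 4.47, 7.05 and 3.57 CPM, with Prx in control and Ncmap in ablated members the most abundant and 1 at 0 in each. The part of these cell types in the ratios was not tested.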

How the data were processed

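The authors ran droplet single-nucleus RNA-seq (10x Genomics 3' kit, v3) and deposited raw UMI counts per gene and nucleus, 1 matrix for each of 3 libraries with 30559 genes. Per the labels and methods, FastQC 0.11.9, Cell Ranger 3.1 and Seurat 2.3.4 were used, with reads of exons and introns counted on GRCm38. All deposited nuclei were used, since the study's own clusters were not used here.

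Members were found by the limits given above, and the members, neighbouring groups and 25 gene lists were chosen with earlier results of these data known. The list counts are therefore no independent evidence. Counts were summed over members per library and divided by their total (CPM). Log2 ratios have conditional binomial intervals, shares exact Clopper-Pearson intervals, differences of shares Newcombe intervals and levels exact Poisson intervals. No test was run, since each condition had 1 library. Genes were compared with at least 100 UMIs in both libraries together, and a fold of 1 log2 unit was counted. Ratios between groups of nuclei used CPM plus 10, and nuclei were thinned to 1500 UMIs where said. Free RNA gives UMIs in nuclei that do not express a gene, so microglial nuclei (at least 6 UMIs of Inpp5d, Fyb, Fli1 and Csf1r) served to show it.

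Named genes were the label markers, the 10 highest and 10 lowest ratios per comparison, the 10 leading genes against each neighbour (a few without a known role unnamed), members of the lists, and Crebbp and Ep300. Genes past the fold in both comparisons and those of the course through the groups were named after their values were seen. Doublets were scored with Scrublet (scanpy 1.11.5) and kept. Coordinates came from GENCODE for GRCm38 by gene ID. The scripts used numpy 2.4.6, pandas 2.3.3 and scipy 1.17.1 under Python 3.11.15, with plots from matplotlib 3.10.9, and the ratios were tested on simulated data. Alternatives were other core limits, depth, doublets, scaling, gene filters and free RNA, and 2 subsets of members added after seeing the data. Of the 12 newly forming genes 11 were matched in the files (not Tmem2). Results for 1 further gene are left out of the text.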

Additional observations from a re-analysis of the deposited data

How the results depend on the processing

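With 1 library per condition, cultures, virus, sort and library cannot be told apart from the ablation. No paired analysis was possible because each condition had 1 library and the result comes from no test. Depth limits low genes: Col9a1 rested on 94, 134 and 27 UMIs.

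With a core limit of 5 UMIs members were 6.716%, 13.39% and 8.176% of the control, CBP-ablated and p300-ablated nuclei (minus control, 6.675 points for CBP-ablated and 1.46 for p300-ablated nuclei, the latter with an interval above 0) and 29.66%, 28.47% and 22.45% of the lineage. With 12 UMIs they were 2.907%, 7.458% and 3.464% of nuclei and 14.62%, 17.44% and 10.04% of the lineage. A limit of 2000 CPM gave control shares of 5.18% and 23.91%. The lineage difference of the CBP-ablated library, whose interval included 0, was -1.186 points at 5 UMIs and -0.2192 at 2000 CPM. At 12 UMIs Arhgap24 stood at 1476, 1620 and 1416 CPM, Fam163a at 105.9 in control and 133.1 in p300-ablated members and Col9a1 at 133.6 in control members.

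Of the counts of genes past the fold in CBP-ablated members, 33 higher became 20 with centred ratios and 50 with 10% free RNA subtracted. The 67 lower became 115 with genes of at least 20 UMIs in each library and 33 in members with at least 20 core UMIs. In p300-ablated members 27 higher and 20 lower became 41 and 46, with the balance turned, for genes of at least 20 UMIs in each library and 13 and 10 with at least 20 core UMIs, where fewer genes were compared. The lower count was 13 at a limit of 12 UMIs, and the higher count 48 with 10% free RNA subtracted. Of the named-gene ratios under all alternatives 622 stayed within their counting interval, 70 moved past it and 1 reversed: Adamts9 in p300-ablated members stood at -0.55 with at least 20 core UMIs, on 6 UMIs in each library. Members with at least 20 core UMIs gave the most moves, 13 of 32 ratios in the CBP-ablated and 10 of 31 in the p300-ablated library. Among them were Asic2 (-1.37), Kcnip3 (-1.42), Pdgfra (-0.79), Grm7 (2.57) and Gpc5 (-3.27) in the former, and Tafa1 (0.83), Mmp15 (0.45), Grm7 (-0.89), Frmd4b (-0.78), Gria1 (-0.79) and Cacng4 (1.51) in the latter, where fewer UMIs were left. Members under 4 Pdgfra and Cspg4 UMIs moved 1 of 32 and 5 of 31. The cause of the moved counts was not tested beyond these settings.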
